A study of Mus musculus with 6 samples.

Results

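The 42 genes described here encode the FoxO transcription factors, 2 sestrins and the machinery of autophagy, from the kinases that start it to the cargo receptors and the lysosomal membrane. They were chosen by gene symbol, and all 42 were found among the 47480 genes of the deposited table. The samples were primary chondrocytes, the matrix-making cells of cartilage, from neonatal mice. The A2ARKO group carries a knockout of the adenosine receptor gene Adora2a on a C57BL/6 background. The labels name no Cre or tissue limit and do not give the deleted part of the gene. The WT group is C57BL/6, and both were raised in one facility. No treatment is given for either group. Each library is RNA of the pooled chondrocytes of 1 litter, and 3 litters stand for each genotype, so p-values measure the spread between litters. The question asked of these cells concerned drivers of osteoarthritis, in which cartilage is lost.

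Autophagy delivers cytoplasm and organelles to the lysosome inside a double membrane, the autophagosome. A kinase complex around ULK1 starts it, a lipid kinase complex around Beclin 1 marks the site, and small ubiquitin-like proteins of the ATG8 family are fixed to the growing membrane. FoxO factors are held in the cytoplasm when insulin-like growth factor signalling through AKT is active and otherwise switch on genes of stress resistance and autophagy. Sestrins restrain the growth kinase complex mTORC1, which itself blocks autophagy. In cartilage, FoxO activity and autophagy are known to decline with ageing and in osteoarthritis.

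Values are FPKM, which scale the reads of a gene by its length and by library size, so levels can be compared between genes. The libraries held about 41700000 to 58400000 reads, judged by the smallest step of the low values. Adora2a, the targeted gene, read 9.36, 7.31 and 3.46 FPKM in WT replicates 1, 2 and 3. It read 0.41, 0.54 and 0.66 FPKM in the A2ARKO replicates. Every A2ARKO library lay below every WT library (log2 fold change -2.25, limma adjusted p = 0.0203; two-sided exact permutation p = 0.1, the smallest that 3 against 3 libraries allow). Leaving out WT replicate 2 gave a limma adjusted p of 0.0582 for Adora2a, and leaving out A2ARKO replicates 1, 2 and 3 in turn gave 0.0824, 0.0955 and 0.0864. The WT libraries stood far apart in their cell markers. The 10 chondrocyte markers, which include Col2a1 and Acan, summed to 24242, 1212 and 386 FPKM in WT. In A2ARKO the sums were 2142, 4272 and 5978 FPKM. Acan itself, the gene of the main cartilage proteoglycan, was only 3.55 FPKM in WT replicate 3. Macrophage and leukocyte markers summed to 134 to 1931 FPKM in WT and 26.5 to 53.5 in A2ARKO, and skeletal muscle markers to 10.9 to 1617 FPKM in WT and 13.5 to 43.05 in A2ARKO. The highest sum of both was in WT replicate 2. The 7 fibroblast markers summed to 5512 to 6909 FPKM in WT and 2874 to 4023 in A2ARKO, without overlap. Col1a1 and Col3a1 made up most of that sum and were lower in every A2ARKO library, and Dpt was called lower. Of the other markers, Postn had a log2 fold change of -2.11 with overlapping groups and was not called. Dcn, Lum and Pdgfra had log2 fold changes of 1.15, 0.16 and 0.02, so the list did not go one way. Bone markers summed to 499 FPKM in WT replicate 1, to 6 and 17.8 FPKM in the other WT libraries and to 36.9 to 67.05 FPKM in A2ARKO. Adipocyte markers summed to 87.5 to 127 FPKM in WT and 104 to 270 FPKM in A2ARKO, and 2 of them, Fabp4 and Plin1, were higher in every A2ARKO library without being called. Of the 7 erythroid markers, 3 were at 0 in every library, and their sum was at most 0.14 FPKM.

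Of the 42 genes, Sesn1 fell in A2ARKO chondrocytes and 41 did not pass the test (limma on log2(FPKM + 1), adjusted p below 0.05 over 11595 tested genes). All 42 passed the filter on low values, set at 1 FPKM in 3 of the libraries, and each reached 1 FPKM in all 6. The 1 call is 2.38% of the genes described, while 5.08% of all tested genes were called. No member was called higher, where 3.31% of all tested genes were, and 1.77% of all tested genes were called lower. At an unadjusted limma p below 0.05, 5 members were lower and 2 higher. Together these are 16.7% of the members, beside 24.7% of all tested genes. The median log2 fold change was 0.0365, beside 0.00201 over all tested genes, and the range was -0.69 to 0.37. With all libraries brought to one FPKM sum, the medians were -0.071 and -0.098, and 51.1% rather than 65.2% of the calls over all genes were higher. For 41 of 42 members the 95% confidence interval of the log2 fold change lay within 1 log2 unit of 0, and for 28 within 0.5. The log2 fold change was below 0 for 18 of the 42, while it was below 0 for 49.6% of all tested genes. Its median size, regardless of sign, was 0.149 for members and 0.181 for all tested genes.

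**Figure D1:**
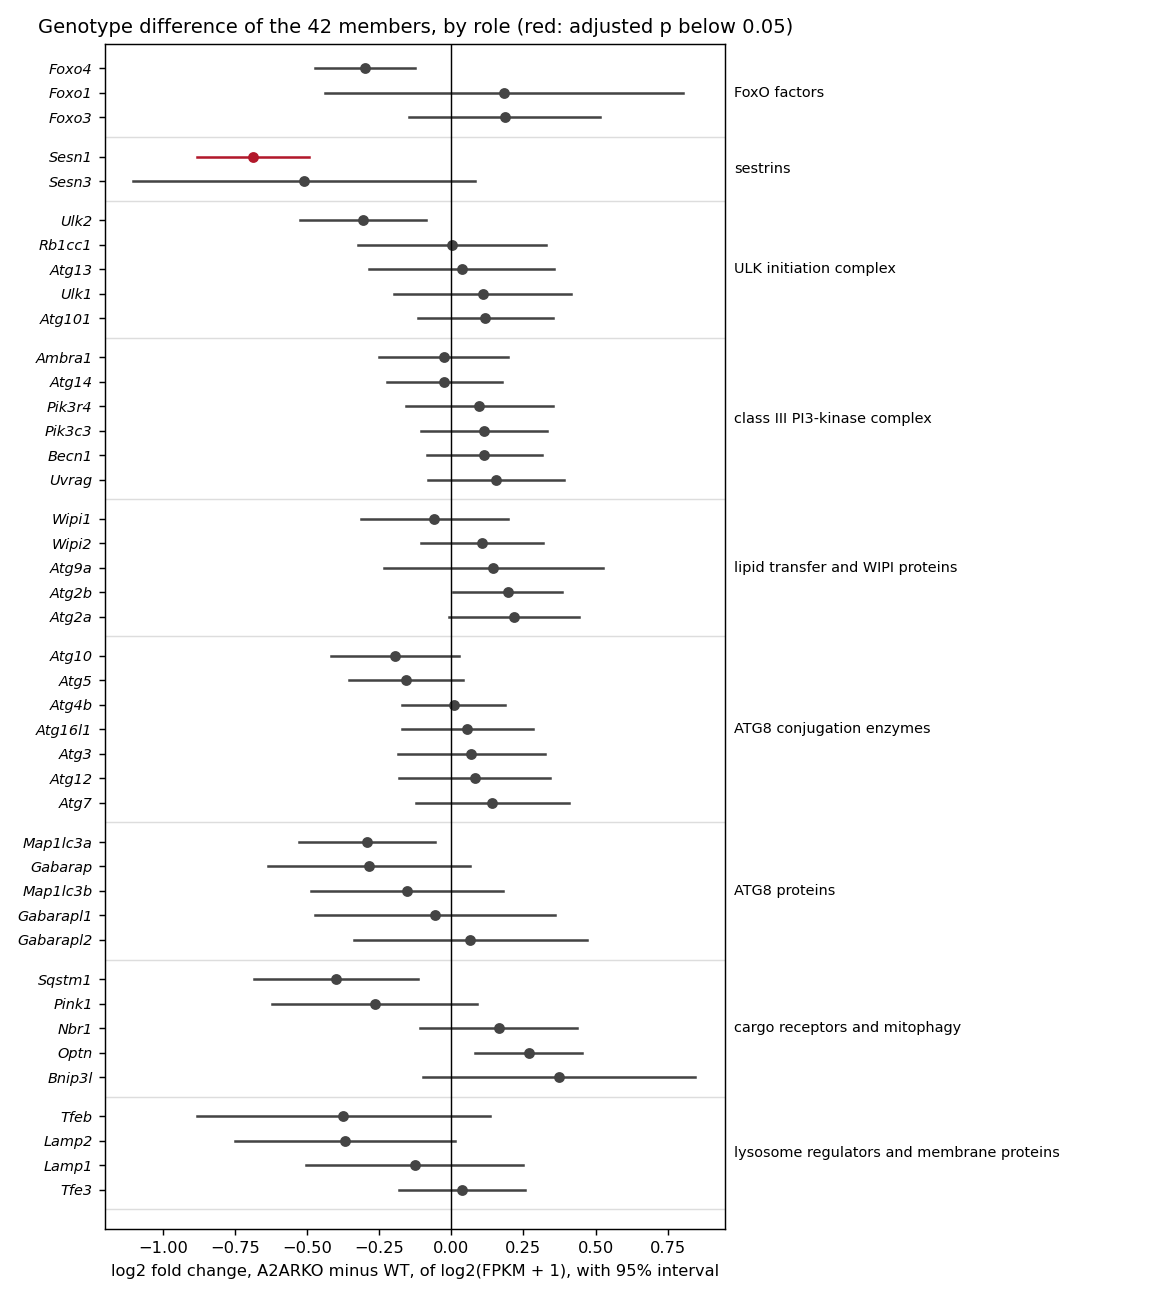
Difference between A2ARKO and WT for each of the 42 genes, grouped by role. The x axis is the log2 fold change of log2(FPKM + 1), points are estimates from limma with n = 3 litters per genotype, and lines are 95% confidence intervals. Sesn1 (red) is the call, at -0.69. The interval of Sesn3 is the one that reaches beyond 1 log2 unit, to -1.104.

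The libraries of the genotypes did not overlap for 12 of the 42 genes, 28.6%, and for 32.9% of all tested genes. In A2ARKO, 9 of these were lower (21.4%, beside 14.9% of all tested genes): Foxo4, Sesn1, Ulk2, Atg5, Atg10, Map1lc3a, Gabarap, Sqstm1 and Lamp2. Atg2a, Atg2b and Optn were higher (7.14%, beside 18% of all tested genes). The members' share without overlap was thus below that of all tested genes in the higher direction and above it in the lower one. These shares rest on 3 and 9 genes and were not tested, so no shift of the members as a set is shown.

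**Figure D2:**
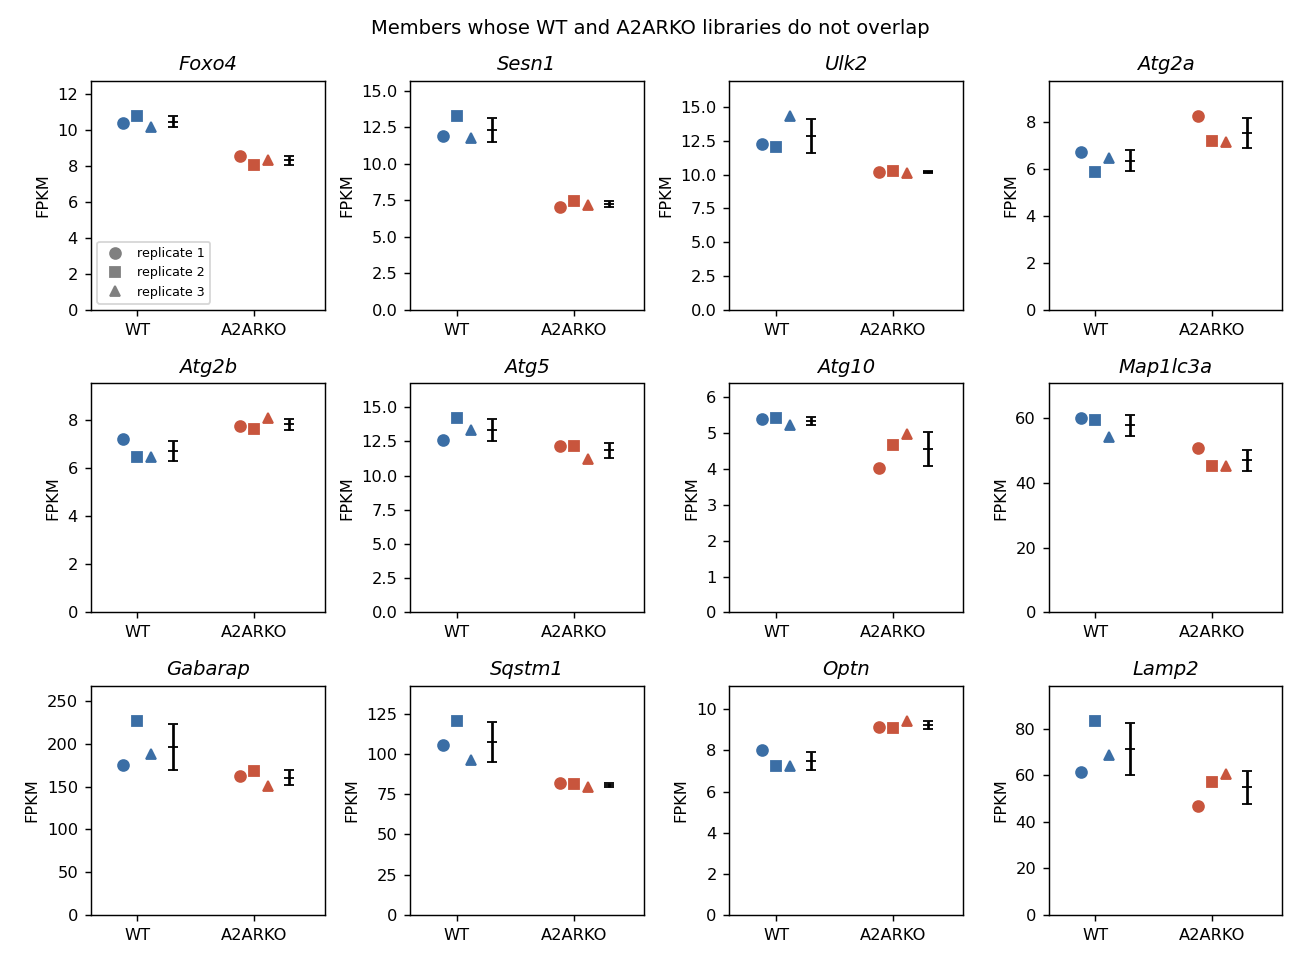
FPKM in each library (y axis, from 0) for the 12 genes whose WT (blue) and A2ARKO (red) libraries do not overlap. Marker shapes give the replicate number, and black bars the mean and SD of 3 litters. Sesn1, the called gene, has A2ARKO libraries that sit between 7.07 and 7.48 FPKM and WT libraries between 11.75 and 13.27 FPKM.

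Among sestrins, Sesn1 fell by 41% of its WT level. Sesn1, a target of p53 and FoxO factors, encodes a stress-induced protein that binds the GATOR2 complex upstream of mTORC1. It read 11.89, 13.27 and 11.75 FPKM in WT and 7.07, 7.48 and 7.21 in A2ARKO. The libraries of each genotype lay close together. The mean went from 12.3 ± 0.84 to 7.25 ± 0.21 FPKM (SD, n = 3), with a log2 fold change of -0.69 and a standard error of 0.08 (limma adjusted p = 0.013). By unadjusted p Sesn1 ranked 110 of 11595 genes. The adjusted p was 0.0624, 0.0808 and 0.0802 without A2ARKO replicates 1, 2 and 3, with log2 fold changes between -0.71 and -0.67. Without WT replicate 2 it was -0.64 (limma adjusted p = 0.0314). The summed macrophage and leukocyte markers were also lower in every A2ARKO library, with and without WT replicate 2. So were the fibroblast markers Col1a1, Col3a1 and Dpt. Neither list went one way. Postn (-2.11) and Cd68 (-1.81) had overlapping groups. The fibroblast markers Dcn, Lum and Pdgfra and the macrophage marker Cd14 had log2 fold changes of 1.15, 0.16, 0.02 and 0.12. The part of macrophages and fibroblasts in the result was not tested. In these bulk samples fewer cells of a type and less RNA per cell cannot be told apart.

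Sesn3, its FoxO-responsive relative, had a wider spread, and its groups overlapped. It read 11.27, 7.89 and 13.96 FPKM in WT and 5.42, 7.79 and 8.99 in A2ARKO, a log2 fold change of -0.51 with a 95% interval from -1.104 to 0.08 (limma adjusted p = 0.259). The stress-induced paralogue Sesn2, which is not one of the 42, was the most abundant sestrin in all 6 libraries. It held 52.6% to 58.1% of summed sestrin FPKM in WT and 61.07% to 68.7% in A2ARKO. Its own level was not higher in A2ARKO, at a mean of 28.8 FPKM in WT and 25.7 in A2ARKO. The Sesn2 groups overlapped (log2 fold change -0.16, limma adjusted p = 0.431). Summed over Sesn1, Sesn2 and Sesn3, sestrin FPKM was 55.3, 46.99 and 54.2 in WT and 39.8, 39.2 and 42.01 in A2ARKO. All 3 A2ARKO sums lay below the WT sums.

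Sesn1 lies on mm10 chromosome 10 (41809935 to 41908424, plus strand), 33.4 Mb from Adora2a. Foxo3 and Atg5 lie on the same chromosome, 33.0 and 31.0 Mb from Adora2a, and neither was called. Sesn1 has a pair of annotated starts. The promoter sequences are from RefSeq on GRCm38.p6, the assembly named mm10, and are shown for Sesn1 as the gene that was called. The 250 bases before the downstream start, at chr10:41887189-41887438 on the plus strand, hold 24 CpG and 71.2% G and C, and none of the motifs searched:
Sesn1 downstream start: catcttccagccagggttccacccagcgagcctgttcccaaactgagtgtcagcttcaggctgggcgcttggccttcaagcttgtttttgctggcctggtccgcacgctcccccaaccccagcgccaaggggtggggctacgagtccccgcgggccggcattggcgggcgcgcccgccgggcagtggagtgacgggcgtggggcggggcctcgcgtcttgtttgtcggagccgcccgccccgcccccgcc
The FoxO binding letters TGTTTAC occur once near the upstream start, 23 bases after it and inside an annotated Sesn1 exon, before the coding sequence, at chr10:41810576-41810605 on the plus strand, with the match in capitals:
Sesn1 upstream start: atggctggagaaccttctacTGTTTACcag
Sesn1 was the only 1 of the 34 members with a RefSeq promoter window (250 bases before to 50 after the start) to hold TGTTTAC or its reverse complement. Of all 32851 windows, 3.65% held it, so a single match is near the general share. A match is a run of letters and not a measured binding site. The deposited FPKM are per gene and do not separate the starts.

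None of the 3 FoxO genes was called, and Foxo3 had the highest level in both genotypes. Foxo3 read 14.34, 11.21 and 12.32 FPKM in WT and 12.73, 13.93 and 16.86 in A2ARKO (log2 fold change 0.18, limma adjusted p = 0.461). Foxo1 was the lowest of the 3, at 4.16 ± 1.56 FPKM in WT and 4.77 ± 1.19 in A2ARKO (SD, n = 3). Its libraries spread from 2.97 to 5.92 FPKM within WT alone. Foxo4 read 10.39, 10.76 and 10.17 FPKM in WT and 8.56, 8.02 and 8.31 in A2ARKO. Its groups did not overlap, and the log2 fold change of -0.30 (standard error 0.07) missed the threshold (limma adjusted p = 0.0681). With a weight for each library it passed (limma adjusted p = 0.0345 by the default method and 0.0452 by the gene-by-gene method). Leaving out A2ARKO replicates 1, 2 and 3 in turn gave Foxo4 a limma adjusted p of 0.156, 0.285 and 0.247. Of the summed FPKM of the 3 FoxO genes, Foxo3 held 43.9% to 48.4% in WT and 51.2% to 54.7% in A2ARKO. This share did not overlap between the genotypes, and it was not tested on its own.

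Initiation of autophagy runs through ULK1 or ULK2, kinases that act with the scaffold FIP200 (encoded by Rb1cc1), ATG13 and ATG101. Ulk2 read 12.23, 12.05 and 14.33 FPKM in WT and 10.17, 10.26 and 10.14 in A2ARKO. The A2ARKO libraries were almost level and all lower, but the difference did not pass (log2 fold change -0.31, standard error 0.09, limma adjusted p = 0.105). Its paralogue Ulk1 read 11.11, 9.61 and 8.17 FPKM in WT and 9.55, 10.36 and 11.33 in A2ARKO and overlapped. The ratio of Ulk2 to Ulk1 FPKM was 1.101, 1.254 and 1.754 in WT and 1.065, 0.99 and 0.895 in A2ARKO, a pattern noticed in the values and not tested. Rb1cc1, Atg13 and Atg101 had log2 fold changes of 0.002, 0.04 and 0.12, and none passed (limma adjusted p of 0.505 or more). The signs of Rb1cc1 and Atg13 flipped with all libraries at one FPKM sum. Ulk2 was 1 of 3 members, with Atg5 and Atg10, whose promoter window held TGACGTC, the core of the cAMP response element, or its reverse complement. The receptor encoded by Adora2a is known to raise cAMP, so the 250 bases before the Ulk2 start are shown, at chr11:61855093-61855342 on the minus strand, with the match in capitals 17 bases before the start:
Ulk2: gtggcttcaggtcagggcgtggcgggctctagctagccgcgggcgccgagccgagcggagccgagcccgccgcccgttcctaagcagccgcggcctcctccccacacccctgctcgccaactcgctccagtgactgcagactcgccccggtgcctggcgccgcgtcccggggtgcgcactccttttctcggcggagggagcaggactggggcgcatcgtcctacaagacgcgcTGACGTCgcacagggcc
Of the 39 windows of members 7.69% held these letters, beside 3.21% of all windows. These are 3 windows, the letters contain CG, and member windows held a median of 20 CpG, beside 7 over all windows. None of these 3 genes was called. Values were lower in each A2ARKO library than in any WT library for all 3, as for 14.9% of all tested genes, and the motif was looked at after these values were seen.

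The class III PI3-kinase complex, which makes the phosphoinositide that recruits the later factors, had no called member among 6. The log2 fold changes lay between -0.03 and 0.15 (limma, none at an unadjusted p below 0.05). Becn1, encoding the central subunit Beclin 1, averaged 11.3 ± 0.72 FPKM in WT and 12.3 ± 0.57 in A2ARKO (SD, n = 3). The catalytic subunit gene Pik3c3 averaged 7.18 ± 0.47 and 7.85 ± 0.60 FPKM, and the regulatory Pik3r4 5.33 ± 0.67 and 5.75 ± 0.36 FPKM. Atg14 and Uvrag, whose products define separate forms of the complex, read 4.61 ± 0.29 and 5.49 ± 0.64 FPKM in WT and 4.51 ± 0.22 and 6.20 ± 0.21 in A2ARKO. Uvrag had the smallest p of the group (log2 fold change 0.15, limma adjusted p = 0.376), and 0.05 at one FPKM sum. The Beclin 1 regulator gene Ambra1 averaged 8.89 and 8.70 FPKM. Becn1 shares 3104 exonic bases with Cntd1, and Uvrag 1589 with Gm45187, both on the opposite strand.

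ATG2 proteins carry lipid to the growing membrane, ATG9A scrambles it, and WIPI proteins read the phosphoinositide mark. Both ATG2 genes were higher in each A2ARKO library than in any WT library without passing the test. Atg2a read 6.72, 5.85 and 6.45 FPKM in WT and 8.25, 7.19 and 7.15 in A2ARKO (log2 fold change 0.22, limma adjusted p = 0.217). Atg2b read 7.19, 6.47 and 6.45 FPKM in WT and 7.76, 7.61 and 8.06 in A2ARKO (0.19, limma adjusted p = 0.193). With all libraries at one FPKM sum these log2 fold changes were 0.11 for Atg2a and 0.09 for Atg2b. Atg9a, Wipi1 and Wipi2 overlapped, at 0.14, -0.06 and 0.11. Wipi1 was the most abundant of this group at 27.6 ± 2.01 FPKM in WT (SD, n = 3). Atg2b shares 383 exonic bases with Gskip on the opposite strand, and without a stated strand setting their reads cannot be told apart. Atg9a shares 1832 exonic bases with Gm29253 on the same strand.

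The conjugation enzymes fix ATG8 proteins to lipid: ATG7 and ATG3 act in sequence, ATG4B trims the ATG8 tail, and ATG10 joins ATG12 to ATG5, which then acts with ATG16L1. None of the 7 passed, and log2 fold changes lay between -0.19 and 0.14. Atg10 read 5.39, 5.40 and 5.21 FPKM in WT and 4.03, 4.65 and 4.96 in A2ARKO (-0.19, limma adjusted p = 0.251). Atg5 read 12.57, 14.17 and 13.31 FPKM in WT and 12.16, 12.19 and 11.23 in A2ARKO (-0.16, limma adjusted p = 0.292). In both genes all A2ARKO libraries lay below all WT libraries. Atg3 was the most abundant enzyme of the group, at 21.97 ± 2.78 FPKM in WT and 22.97 ± 0.09 in A2ARKO (SD, n = 3). Atg12 averaged 16.1 and 17.0 FPKM, and Atg4b, Atg7 and Atg16l1 lay between 2.99 and 7.08 FPKM in every library.

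Of the ATG8 genes, Gabarap held most of the transcript, 56.6% to 65.3% of the summed FPKM of the 5 genes across the libraries. Gabarap read 175.36, 227.11 and 188.34 FPKM in WT and 162.73, 168.12 and 151.32 in A2ARKO (log2 fold change -0.28, limma adjusted p = 0.283). Map1lc3a, encoding LC3A, read 59.77, 59.22 and 54.00 FPKM in WT and 50.60, 45.00 and 45.12 in A2ARKO (-0.29, limma adjusted p = 0.134). Both were lower in every A2ARKO library, and neither passed. Map1lc3b, encoding the widely used autophagosome marker LC3B, averaged 13.4 ± 2.38 and 11.8 ± 0.91 FPKM, and Gabarapl1 47.3 ± 10.96 and 44.75 ± 2.69 FPKM (SD, n = 3). Gabarapl2 was the lowest of all 42 at 2.03 ± 0.32 FPKM in WT, with about 184 to 353 reads per library. Summed over the 5 genes, ATG8 FPKM was 309.8, 347.8 and 294.4 in WT and 267.4, 273.6 and 258.3 in A2ARKO. Gabarap and Map1lc3b were highest in WT replicate 2, where macrophage and muscle markers were highest too. Without that library Gabarap differed by -0.18 (limma adjusted p = 0.451), and the part of these cells in the result was not tested. Map1lc3b and Gabarapl2 have processed pseudogenes at 95% identity or more, of which Gm6055, a near copy of Map1lc3b, averaged 3.60 FPKM in WT. Reads of Map1lc3b may therefore be split. The pseudogenes of Gabarapl2 were near 0, with Gm3724 the highest at a mean of 0.13 FPKM in A2ARKO. The values do not show how reads that match both a member and a copy were counted. The levels and ATG8 shares of Map1lc3b and Gabarapl2 may therefore be too low.

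Cargo receptors tie what is to be degraded to ATG8 proteins. Sqstm1, encoding p62, is itself consumed by autophagy as protein and had rank 3 in WT level among the 42. It read 105.38, 120.59 and 96.15 FPKM in WT and 81.73, 81.24 and 79.24 in A2ARKO. The A2ARKO libraries were level and lower, with a log2 fold change of -0.40 and a 95% interval from -0.69 to -0.12, and did not pass (limma adjusted p = 0.105). With a weight for each library the limma adjusted p was 0.0457 by the default method and 0.0581 by the gene-by-gene method. Without WT replicate 2 the difference was -0.31 (limma adjusted p = 0.164). Optn, encoding the receptor optineurin, had its higher values in A2ARKO, with 8.01, 7.24 and 7.23 FPKM in WT and 9.12, 9.10 and 9.44 in A2ARKO (0.27, limma adjusted p = 0.0991). With all libraries brought to one FPKM sum, that log2 fold change was 0.16. Nbr1, a receptor related to p62, averaged 22.7 ± 2.71 and 25.5 ± 1.64 FPKM (SD, n = 3). Sqstm1 shares 580 exonic bases with Mrnip on the opposite strand.

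Of the mitophagy genes, Bnip3l, encoding the hypoxia-induced mitochondrial receptor NIX, had the highest log2 fold change of the 42 without a call. It read 11.72, 13.29 and 12.87 FPKM in WT and 12.36, 17.12 and 21.58 in A2ARKO (0.37, 95% interval -0.10 to 0.84, limma adjusted p = 0.296). A2ARKO replicate 1 lay within the WT range and replicates 2 and 3 above it. Pink1, the kinase gene of the PINK1-Parkin route, read 29.88, 25.76 and 20.93 FPKM in WT and 19.32, 20.46 and 22.88 in A2ARKO and overlapped (-0.27, limma adjusted p = 0.316).

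At the lysosome, Lamp1 was the most abundant of all 42 genes and Lamp2 had rank 4. Lamp1 read 440.78, 452.65 and 393.57 FPKM in WT and 375.71, 403.45 and 396.92 in A2ARKO (log2 fold change -0.13, limma adjusted p = 0.661). Lamp2, needed for fusion of autophagosomes and lysosomes, read 61.59, 83.37 and 68.77 FPKM in WT and 46.93, 57.02 and 60.48 in A2ARKO. Its groups missed each other narrowly, and the difference did not pass (-0.37, limma adjusted p = 0.213), nor without WT replicate 2 (-0.25, limma adjusted p = 0.36). The transcription factor genes Tfeb and Tfe3, master regulators of lysosome and autophagy genes, averaged 2.37 ± 0.84 and 7.45 ± 0.71 FPKM in WT and 1.55 ± 0.26 and 7.65 ± 0.20 in A2ARKO (SD, n = 3). Tfeb read 3.03, 2.65 and 1.43 FPKM in WT, so WT replicate 3 lay within the A2ARKO range of 1.33 to 1.84.

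TFEB and TFE3 bind E-boxes of the CLEAR kind. The letters TCACGTG or their reverse complement lay in the promoter windows of 4 members, Atg3, Atg7, Atg14 and Lamp1. These are 10.3% of the 39 member windows, beside 3.77% of all 32851 windows. The Lamp1 promoter is shown because it holds 4 such matches, 62, 45, 28 and 16 bases before the start. The 250 bases lie at chr8:13158911-13159160 on the plus strand, with the matches in capitals:
Lamp1: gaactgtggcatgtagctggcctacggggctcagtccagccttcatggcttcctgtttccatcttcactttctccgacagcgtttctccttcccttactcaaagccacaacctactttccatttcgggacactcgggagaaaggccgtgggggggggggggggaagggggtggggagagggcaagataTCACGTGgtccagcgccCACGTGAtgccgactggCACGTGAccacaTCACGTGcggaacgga
None of these 4 genes was called, and their log2 fold changes were 0.07 (Atg3), 0.14 (Atg7), -0.02 (Atg14) and -0.13 (Lamp1). Member promoters were also richer in G and C than promoters at large, at a median of 60.7% against 52.7%. They held more CpG as well, at a median of 20 against 7, and TCACGTG contains CG.

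**Figure D3:**
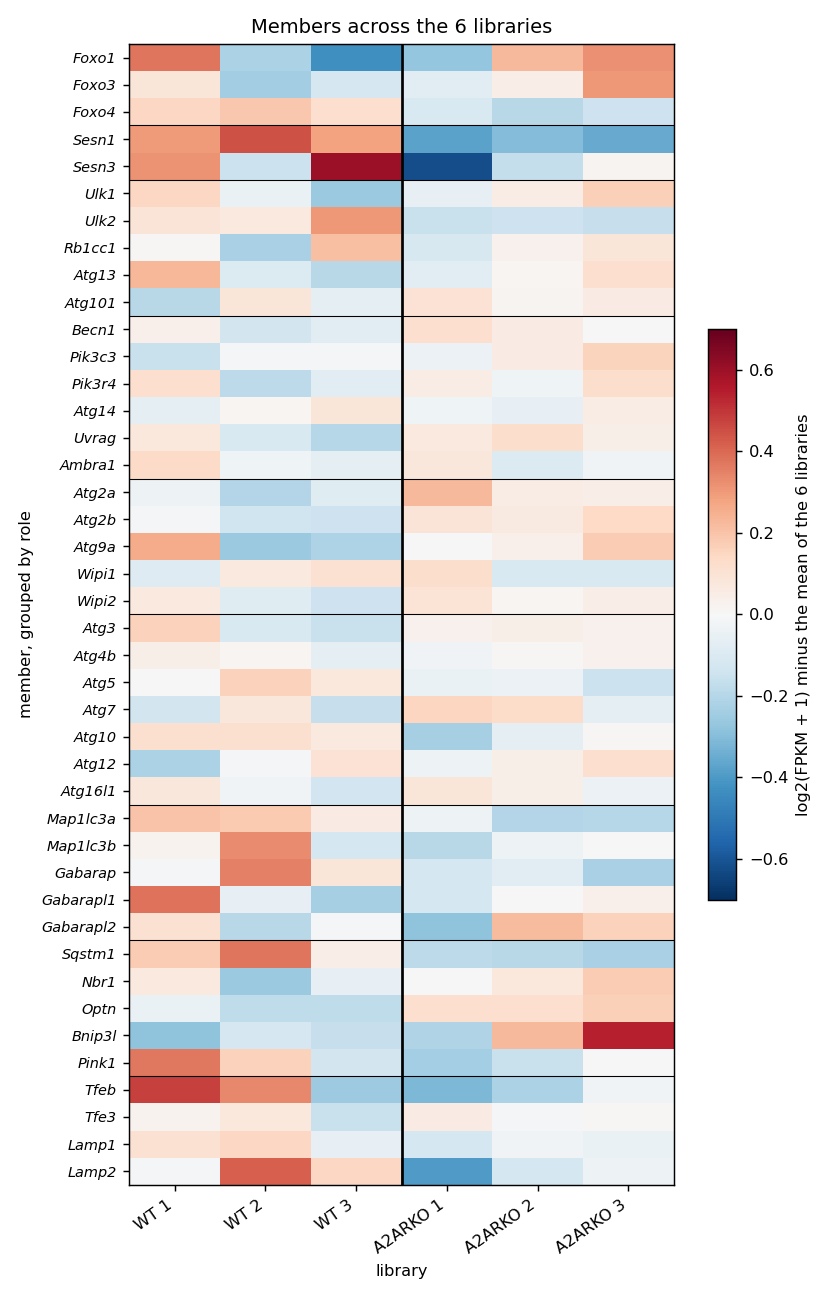
Each of the 42 genes in each of the 6 libraries. Colour is log2(FPKM + 1) minus that gene's mean over the 6 libraries, and lines divide the roles. Sesn1 is high in all WT and low in all A2ARKO libraries, while Foxo1, Atg9a, Atg13 and Gabarapl1 are high in WT replicate 1 and low in WT replicate 3.

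Within WT, replicate 1 was the highest library for 22 of the 42 genes and replicate 3 the lowest for 23. Within A2ARKO, replicate 3 was highest for 22 and replicate 1 lowest for 21. The summed chondrocyte markers ran in the same order within each genotype, with WT replicate 1 and A2ARKO replicate 3 first. So did the FPKM sum of all genes, from 292850 down to 231094 in WT and from 300779 down to 269052 in A2ARKO. The parts of library sum and marker sum in this order were not tested. Over the 6 libraries, the correlation of log2(FPKM + 1) with the log2 of that sum was computed for all 42 genes after this order was seen. Pearson's r was 0.8 or more for 7 genes, 16.7%, and for 7.87% of all tested genes. These were Foxo1, Ulk1, Atg13, Atg9a, Atg3, Atg4b and Gabarapl1. For Atg13, r was 0.98 (exact permutation p = 0.00278) and Spearman's rho 1 (exact permutation p = 0.00278). Adjusted over the 42 genes, no p passed, the smallest being 0.0583 for r and 0.117 for rho. For Foxo1, r was 0.92 and rho 0.94 (exact permutation p of 0.00556 and 0.0167, adjusted 0.0583 and 0.175). Leaving out WT replicates 1 and 3, the libraries farthest from the median of the marker sum, gave r of 0.94 for Atg13, 0.92 for Foxo1, 0.90 for Ulk1, 0.94 for Atg9a, 0.80 for Atg3, 0.38 for Atg4b and 0.75 for Gabarapl1. The value for Atg4b thus fell without those libraries. What remains is WT replicate 2, which has the lowest marker sum of those kept, and the A2ARKO libraries. Genotype and marker sum cannot be told apart among them, so these r values do not show which relations hold. For Sesn1, r was -0.22 (exact permutation p = 0.657, adjusted 0.862), and -0.77 without WT replicates 1 and 3. Each genotype has 3 libraries, too few for a correlation within it.

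**Figure D4:**
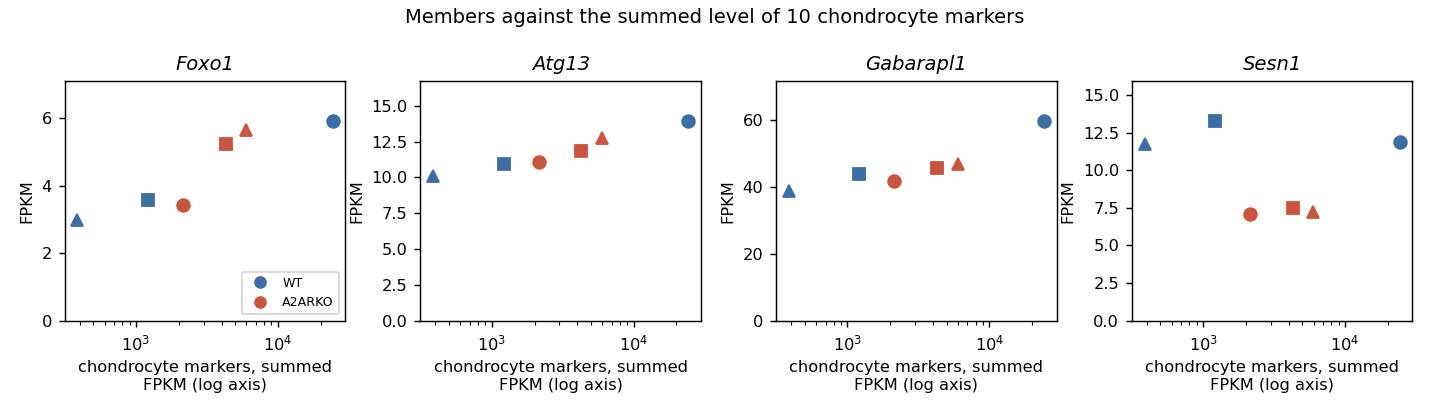
FPKM of 4 genes (y axes, from 0) against the summed FPKM of 10 chondrocyte markers (x axis, log scale) in 3 WT (blue) and 3 A2ARKO (red) libraries; marker shapes give the replicate. Foxo1, Atg13 and Gabarapl1 are highest in WT replicate 1 with its marker sum of 24242 FPKM, while Sesn1 separates by genotype at 7.07 to 7.48 against 11.75 to 13.27 FPKM.

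Other genes of the pathway, from 6 lists of 119 genes, held 2 called genes, both higher in A2ARKO and both among the FoxO targets. Of 17 tested FoxO target genes, 2 rose and 15 did not pass (median log2 fold change 0.05), while 3.31% of all tested genes were called higher. Those that rose were Sod2, encoding mitochondrial superoxide dismutase, and Pdk4, encoding a kinase that inhibits pyruvate dehydrogenase. Sod2 read 11.92, 24.23 and 10.26 FPKM in WT and 58.31, 52.95 and 65.09 in A2ARKO (1.95, limma adjusted p = 0.0294), and NF-kappaB is also known to induce it. Pdk4 read 2.41, 3.13 and 4.40 FPKM in WT and 9.72, 11.06 and 7.56 in A2ARKO (1.29, limma adjusted p = 0.0302). Both moved opposite to Sesn1, but the tested targets did not go one way. Without overlap of the groups, 3 were higher in A2ARKO, Sod2 and Pdk4 among them. Another 4 were lower, namely Txnip (-1.16), Tsc22d3 (-1.37), Cdkn1b (-0.64) and Pik3ip1 (-0.56), none of them called. Over all tested genes, 18% were higher and 14.9% lower without overlap. Leaving out A2ARKO replicates 1, 2 and 3 in turn gave limma adjusted p of 0.102, 0.113 and 0.119 for Sod2 and 0.107, 0.126 and 0.0777 for Pdk4. For Pdk4 the limma adjusted p was also 0.0726 without WT replicate 2 and 0.0699 with all libraries brought to one FPKM sum.

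None of 13 upstream regulators of FoxO passed by limma (median log2 fold change -0.05). None of 18 tested mTORC1 and AMPK regulators passed (median 0.03), and Mtor, the kinase gene itself, read 7.75, 5.64 and 6.22 FPKM in WT and 8.43, 8.65 and 9.35 in A2ARKO (0.39, limma adjusted p = 0.12). Without WT replicate 1, Mtor passed (0.50, limma adjusted p = 0.0375). It also passed with a weight for each library by the default method (limma adjusted p = 0.0457), an estimate that stopped before it converged. By the gene-by-gene method Mtor did not pass (limma adjusted p = 0.0569). Nor did it pass without A2ARKO replicates 1, 2 and 3 in turn (limma adjusted p of 0.229, 0.317 and 0.334). In the remaining lists 0 of 24 further autophagy genes, 0 of 10 further receptors and 0 of 30 lysosome genes passed by limma, with medians of 0.005, -0.01 and -0.08. The smallest p in each belonged to Stx17 (-0.30, limma adjusted p = 0.125), which encodes the fusion SNARE of the autophagosome, Sec62 (-0.33, limma adjusted p = 0.263) and the cholesterol carrier gene Npc2 (0.66, limma adjusted p = 0.115).

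**Figure D5:**
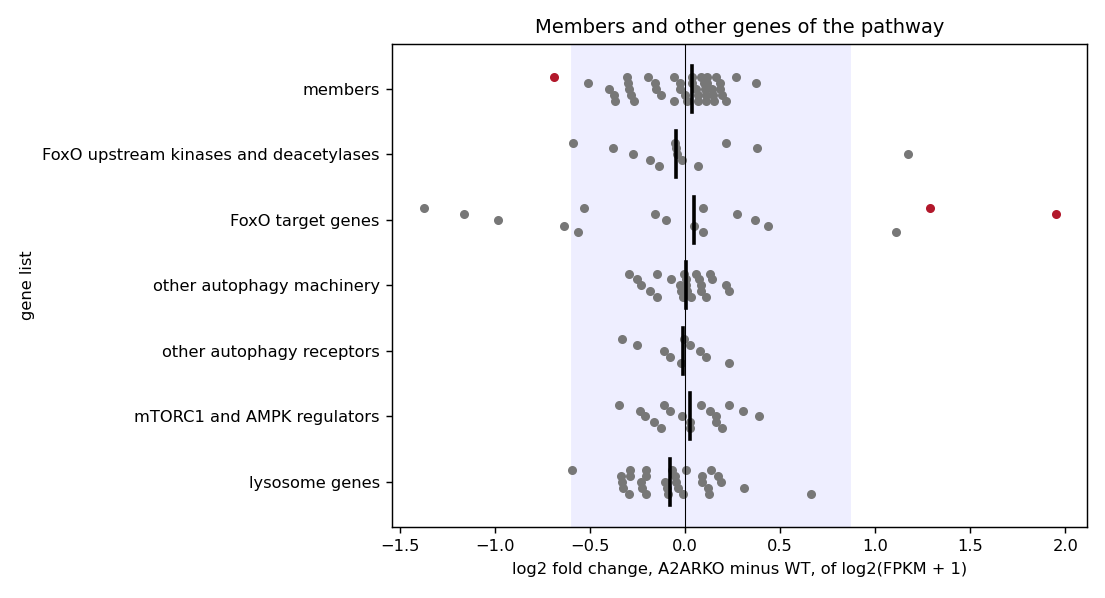
Log2 fold change of the 42 members and of the tested genes of the 6 other lists (x axis), one point per gene with called genes in red, and the list median as a black bar. The shaded band spans the 5th to 95th percentile of all 11595 tested genes, -0.59 to 0.87. Sesn1 lies just below the band, while Sod2 and Pdk4 lie above it.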

How the data were processed

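RNA of 3 WT and 3 A2ARKO litter pools was sequenced on an Illumina HiSeq, per the labels' protocols. The authors deposited 1 table of FPKM with 47480 genes, rounded to 2 decimals. HTSeq and mm10 are named per the submitters' processing notes, while aligner, annotation, gene lengths and strandedness were not given in the sources used here. Columns were matched to sample titles, with KO read as A2ARKO. Genes that reached 1 FPKM in 3 of the 6 libraries entered a limma 3.58.1 fit (R 4.3.3, eBayes with trend) on log2(FPKM + 1), two-sided, with Benjamini-Hochberg adjustment over 11595 genes, and tested on simulated data first. The scale understates changes of low genes. Depth came from whole-read steps in annotated genes of at most 150 nt. Reads per gene, which use GENCODE M21 exon lengths, are approximate.

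The members and lists were chosen with earlier results of these data known. Genes named with their own test are Adora2a, called members, members without overlap, the member with the smallest p in each role, and per other list up to 4 called genes or the gene with the smallest p. For 1 list that gene is not reported here. Other genes with a printed test were picked after their values were seen. The family shares, the relation to chondrocyte markers, the printed promoters and 2 alternatives (1 weight per genotype, gene-by-gene library weights) were chosen after values were seen. Protein sequences were not used here.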

Additional observations from a re-analysis of the deposited data

How the results depend on the processing

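Sesn1 was the only member called lower, and no member was called higher, with a pseudocount of 0.1, no filter, a mean FPKM of 5 or more, rescaling to the same sum, quantile normalization, no trend, or 1 weight per genotype (added after seeing the data). With a mean of 5 or more, 34 members were tested and Adora2a was not. Of the 42 members, 10 changed sign on rescaling to the same sum, each with a main log2 fold change of at most 0.106 in size, 3 after quantile normalization, 2 with library weights (1 by the gene-by-gene method) and up to 4 with 1 library left out. No member given with its own adjusted p was among them. Rescaling to the same sum moved the median of all genes from 0.00201 to -0.098 and the share of higher calls from 65.2% to 51.1% (53.8% after quantile normalization). It also turned the members' median to -0.071, with 28 rather than 18 of 42 below 0. Over all genes, 589 were called, 213 without a filter, 348 after rescaling and 1363 with a weight for each library (arrayWeights), where 3 members, Foxo4, Sesn1 and Sqstm1, were lower. That weight estimate stopped before it converged. The gene-by-gene method, chosen after those counts were seen, gave 1096 genes and 2 members, Foxo4 and Sesn1. The count with 1 library left out ranged from 50 (without A2ARKO replicate 2) to 900 (without WT replicate 1), and the members called lower from 0 to 1. It was 0 without any 1 of the A2ARKO libraries. These fits have fewer samples. So have those without a WT library, in each of which Sesn1 was called. Over all tested genes, the median SD of log2(FPKM + 1) was 0.192 in WT and 0.0966 in A2ARKO. The part of this unequal spread in the counts was not tested. Adora2a had a log2 fold change of -2.25 and an adjusted p of 0.0533 without a filter, and its fold changes with 1 library left out lay between -2.60 and -1.99.

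With the replicate block, 2 genes and 0 members were called (7 members without a block had an unadjusted limma p below 0.05). Adora2a then had -2.25 (adjusted p = 0.121) and Sesn1 -0.69 (adjusted p = 0.113). Sod2 and Pdk4 had adjusted p of 0.13 and 0.144 with the block and 0.0677 and 0.0702 without a filter. The numbers mark no shared litter. Deviations of same-numbered libraries from their genotype mean correlated at -0.52, -0.33 and -0.39. With 3 libraries per genotype, and marker sums that run in opposite number order, these values cannot show whether same-numbered libraries were handled together. The scale holds no count error, and the number of litters limits precision.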

Other observations

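Some FoxO target genes that were not called had wide gaps between genotypes. They were chosen after their values were seen. Tsc22d3, encoding the glucocorticoid-induced leucine zipper protein, read 33.59, 12.66 and 15.98 FPKM in WT and 6.64, 7.11 and 6.46 in A2ARKO (log2 fold change -1.37, limma adjusted p = 0.0726). Without WT replicate 1 it passed (-0.98, limma adjusted p = 0.0189). So it did on rescaling to the same sum (limma adjusted p = 0.044) and with weights per library or genotype (0.0307 to 0.0489). It did not pass without a filter (limma adjusted p = 0.147) or without WT replicate 3 (limma adjusted p = 0.0936). Nor did it pass without A2ARKO replicates 1, 2 and 3 in turn (limma adjusted p of 0.189, 0.215 and 0.226). The cell cycle inhibitor gene Cdkn1b read 14.55, 13.06 and 18.86 FPKM in WT and 10.46, 9.50 and 8.63 in A2ARKO (-0.64, limma adjusted p = 0.0657). With a weight for each library it passed (limma adjusted p = 0.0354, and 0.0413 by the gene-by-gene method). Leaving out A2ARKO replicates 1, 2 and 3 in turn gave Cdkn1b a limma adjusted p of 0.144, 0.221 and 0.229. Bnip3, the mitophagy receptor gene related to Bnip3l, read 15.83, 15.52 and 10.13 FPKM in WT and 18.83, 33.38 and 44.62 in A2ARKO (1.11, limma adjusted p = 0.112). Like Bnip3l, it was lowest of its group in A2ARKO replicate 1 and highest in A2ARKO replicate 3.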
